A study of Mus musculus with 2 samples.

Results

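Cells with intact Phgdh were compared between a skin wound at 5 days post wounding (5 dpw) and unwounded skin. A UMI is a tag that marks a single captured RNA molecule. Cells were droplet barcodes that reached 1000 gene UMIs and 500 genes and in which mitochondrial transcripts made up no more than 10% of UMIs. A barcode was given its condition by the hashtag that held at least 20 UMIs and at least 70% of its hashtag UMIs. This gave 1558 cells at 5 dpw and 267 unwounded cells, 1825 of the 5887 cells so assigned in all 6 conditions of the study. The study concerns serine synthesis and the integrated stress response in stem cells of the hair follicle, at rest and after injury.

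Both groups came from Sox9-CreER;R26-LSL-YFP;Phgdh +/+ mice on the C57B6/J background, which the labels give as males and females pooled. Cre under Sox9 control switches on YFP in Sox9-expressing cells, so YFP marks these cells of the follicle and their descendants, and not the rest of the epidermis. Cells at 5 dpw were sorted as live, high in integrin-α6, positive for YFP, and negative for CD140a, CD117, CD31 and CD45. Unwounded cells passed the same gates and were in addition negative for SCA1 and positive for CD34 and CD200. The ages and the number of animals are not given in the sources used here. Each condition is 1 hashtagged pool in 1 shared 3′ capture, so no replicate exists, no test between the groups was possible, and wound, animal and gate cannot be told apart.

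The bulge of the hair follicle holds stem cells that rest between hair cycles, kept quiet in part by BMP signals and kept in place by integrins and a basement membrane they help to build. After wounding, cells of the follicle can move into the epidermis, divide, and take on the program of the epidermis, in which basal keratins give way to Krt1 and Krt10 as cells leave the basal layer. Serine is made from a glycolytic intermediate by PHGDH, PSAT1 and PSPH, and ATF4, a transcription factor made when the integrated stress response is active, binds and induces the genes of these enzymes.

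The pools were told apart by the hashtag oligos on the antibodies, shown here because every assignment of a cell rests on them.
5 dpw, Phgdh +/+: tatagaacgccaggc
unwounded, Phgdh +/+: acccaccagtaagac
The median share of a cell's hashtag UMIs held by its own hashtag was 94.5% at 5 dpw and 85% in unwounded cells.

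The pools held 63997574 gene UMIs at 5 dpw and 2131534 in unwounded cells, with medians of 37026.5 UMIs and 5379.5 genes per cell at 5 dpw and of 7210 UMIs and 2692 genes per unwounded cell. Levels are given as CPM, the UMIs of a gene summed over the cells of a pool and scaled to a pool total of 1000000. Such a sum cannot tell fewer cells with a transcript from less of it per cell. A count of 3 UMIs, the limit that a count of 0 allows, is 0.0469 CPM at 5 dpw and 1.41 CPM in unwounded cells. Free RNA, read from barcodes of at least 100 and under 400 UMIs, would make up 0.623% of the 5 dpw pool and 3.21% of the unwounded pool. By Xist and Y-linked genes 343 cells at 5 dpw (22%) and 0 of 267 unwounded cells (exact upper limit 1.37%) were called female, so that the cells do not show the females that the labels name for the unwounded pool. Of these unwounded cells 139 were called male, and sex could not be called for 128. The limit of 1.37% is thus on cells called female and not on females in the pool. All intervals are 95% intervals, are exact, and cover counting error only.

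A few unwounded cells stood apart. Of the 267, 4 had at least 20000 UMIs and together held 9.90% of the pool's UMIs. All 4 were under the 5th percentile of unwounded cells in bulge genes, and their own hashtag held between 71.2% and 99.8% of their hashtag UMIs. For 2 of the 4 deep cells the next hashtag was that of 5 dpw Phgdh +/+. Whether the 4 were wound cells given the wrong hashtag was not tested, and the unwounded levels of genes they carry, such as Areg and Mmp13, are uncertain for that reason. For 2 unwounded cells, of which 1 was a deep cell, at least 1% of UMIs came from Krt6a, Krt6b and Krt16, keratins of injured skin. No UMI of the bulge keratin Krt15 was found in 9 unwounded cells. Where the 4 deep cells move a fold by more than 1.5 times, the log2 fold without them is given.

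Markers of the labelled cells were present. The 10 bulge markers summed to 773 CPM at 5 dpw and to 16890 CPM in unwounded cells, and the 8 basal keratinocyte markers to 38132 CPM at 5 dpw and 11433 CPM in unwounded cells. Krt14 made 25991 CPM of the basal sum at 5 dpw and 5073 CPM of that in unwounded cells. The 8 endothelial markers summed to 13.4 CPM at 5 dpw and 6.57 CPM in unwounded cells, with 5 of 8 at 0 in unwounded cells. The 10 immune markers summed to 12.6 CPM at 5 dpw and 5.16 CPM in unwounded cells, with 6 at 0 in unwounded cells. The 8 fibroblast markers summed to 3.08 CPM at 5 dpw and 106 CPM in unwounded cells, of which Col6a1 made 82.1 CPM, with 4 at 0. The 8 melanocyte markers summed to 33.6 CPM at 5 dpw and 588 CPM in unwounded cells, of which Mitf alone made 586 CPM, with 4 at 0. The 7 muscle and pericyte markers summed to 25 CPM at 5 dpw and 114 CPM in unwounded cells, of which Cspg4 made 102 CPM, with 4 at 0, and the 7 Merkel cell markers to 1.17 CPM at 5 dpw and 2.81 CPM in unwounded cells, with 4 at 0.

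Other keratinocyte markers were present in both pools. The 8 suprabasal markers summed to 12996 CPM at 5 dpw and 3205 CPM in unwounded cells, the 8 wound-activated markers to 21551 CPM at 5 dpw and 2382 CPM in unwounded cells, and the 8 cycling markers to 882 CPM at 5 dpw and 114 CPM in unwounded cells. The upper follicle markers summed to 1122 CPM at 5 dpw and 1044 CPM in unwounded cells, the sebaceous markers to 252 CPM at 5 dpw and 157 CPM in unwounded cells, and the 10 hair matrix markers to 10.5 CPM at 5 dpw and 61.9 CPM in unwounded cells. The part of such cells in the results was not tested.

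At 5 dpw the pool held less RNA of the bulge program and more of the genes of activated, dividing and differentiating keratinocytes. Genes of basal cells were mixed, with log2 folds of 2.36 for Krt14, 0.27 for Krt5 and -1.67 for Trp63. Of the 8632 genes that averaged 10 CPM or more over both pools, called measured below, 942 (10.9%) were at least 2-fold higher at 5 dpw and 2353 (27.3%) at least 2-fold lower, and the median log2 fold was -0.30, against which the list medians below are to be read. These counts go by size alone and call no gene changed. The list counts below are to be read against the shares of 10.9% higher and 27.3% lower. With TMM factors, which discount the most unequal genes, every log2 fold was higher by 0.655, and the same genes split into 2288 at least 2-fold higher and 1196 at least 2-fold lower, so that 65.7% of the genes past 2-fold were higher in place of 28.6%. Without the 4 deep unwounded cells 1124 were at least 2-fold higher and 2501 at least 2-fold lower. Large folds were mostly downward: 179 genes were at least 16-fold lower and 25 at least 16-fold higher. The 2 directions do not have equal reach. A count of 3 UMIs is 1.41 CPM in unwounded cells and 0.0469 CPM at 5 dpw, and free RNA would make up 3.21% and 0.623%. The 16-fold counts were not repeated with TMM factors or without the deep cells.

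A few abundant transcripts carried much of the difference. The 12 genes with the largest gains in CPM made up 10.5% of UMIs at 5 dpw and 1.72% in unwounded cells. They were Krt14, Fabp5, Krt16, Lgals7, Krt6a, Ly6d, Sfn, Cstdc5, Krt6b, Krtdap, Krt1 and Krt10, genes of basal, activated and differentiating keratinocytes. Fabp5, a fatty acid carrier of the epidermis, stood at 23415 CPM at 5 dpw and 1729.7 CPM in unwounded cells, a log2 fold of 3.76 (3.71 to 3.81), or 4.44 without the deep unwounded cells. The 12 genes with the largest losses made up 2.02% of UMIs at 5 dpw and 7.04% in unwounded cells. They were Krt15, Malat1, Apoe, AY036118, S100a4, S100a6, Nfib, Ptn, Foxp1, Tpt1, Cmss1 and Cxcl14. Apoe, the lipid carrier, stood at 2596 CPM at 5 dpw and 9690.2 CPM in unwounded cells (log2 fold -1.90). S100a4, a calcium-binding protein, stood at 62.3 CPM at 5 dpw and 2524 CPM in unwounded cells (log2 fold -5.34).

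**Figure D1:**
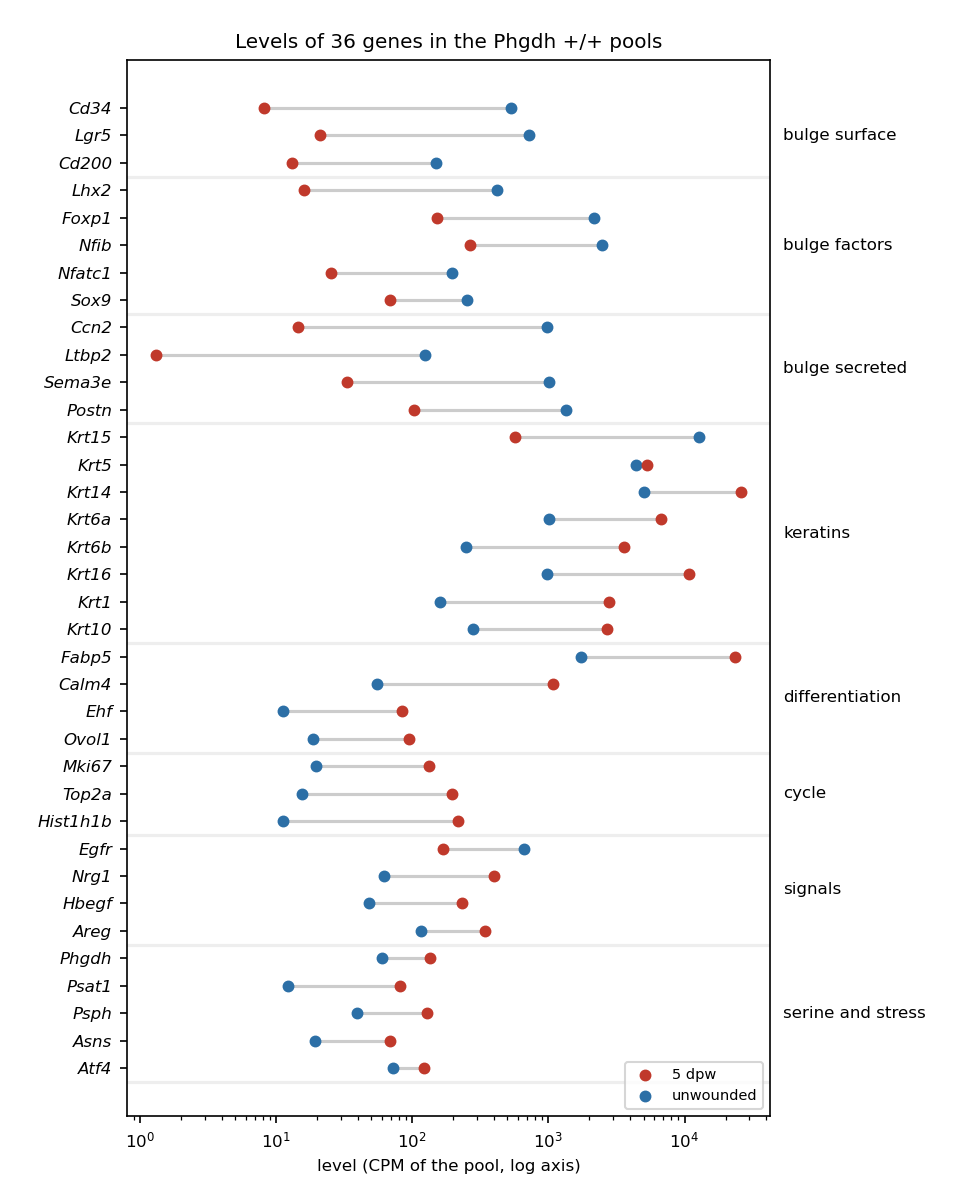
Levels of 36 genes in the Phgdh +/+ pools on a log axis of CPM, grouped by role; red points are the 5 dpw pool, blue points the unwounded pool, and each point is 1 pool with no replicate. Bulge genes lie lower at 5 dpw (Krt15 at 569 CPM at 5 dpw and 12866 CPM unwounded), and keratins of activated and differentiating cells lie higher (Krt1 at 2771 CPM at 5 dpw and 160.0 CPM unwounded).

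Genes of bulge stem cell identity were far lower at 5 dpw. Of 19 measured transcription factors of hair follicle stem cells, out of 20 listed, 16 were at least 2-fold lower and 1 at least 2-fold higher, with a median log2 fold of -2.36 against -0.30 over all genes. Lhx2, a factor that maintains bulge cells, stood at 16.1 CPM at 5 dpw and 421 CPM in unwounded cells (log2 fold -4.71, -4.84 to -4.58). Foxp1, linked to stem cell quiescence, stood at 152 CPM at 5 dpw and 2166 CPM in unwounded cells (-3.83), and the chromatin regulator Nfib at 268 CPM at 5 dpw and 2486 CPM in unwounded cells (-3.22). Sox9, whose promoter drives the Cre, was lower by less, at 68.6 CPM at 5 dpw and 252 CPM in unwounded cells (-1.88, -2.01 to -1.74). The exception was Klf5, a factor of epidermal progenitors, at 299 CPM at 5 dpw and 69 CPM in unwounded cells (2.12; 2.84 without the deep cells).

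Surface molecules of the bulge split, and several of them were sorted on. Of 19 measured out of 21, 9 were at least 2-fold lower and 3 at least 2-fold higher (median -0.76, and -0.11 with TMM factors). Cd34 stood at 8.16 CPM at 5 dpw and 534 CPM in unwounded cells (-6.03, -6.18 to -5.88). Cd200 stood at 13 CPM at 5 dpw and 150.1 CPM in unwounded cells (-3.53). Ly6a, the gene of SCA1, stood at 271 CPM at 5 dpw and 32.4 CPM in unwounded cells (3.07, or 4.07 without the deep cells). Ly6e, a separate gene of the same family, stood at 132 CPM at 5 dpw and 29.6 CPM in unwounded cells (2.16, or 2.74 without the deep cells). Unwounded cells were sorted on CD34, CD200 and SCA1 and 5 dpw cells were not. The gate and the wound cannot be told apart here. Itga6, on which both groups were sorted, differed little, at 329.8 CPM at 5 dpw and 245 CPM in unwounded cells (0.43). Lgr5, a receptor of bulge cells that no gate used, stood at 21.2 CPM at 5 dpw and 720.1 CPM in unwounded cells (-5.09, -5.20 to -4.98), and Il31ra, a cytokine receptor subunit, at 24.7 CPM at 5 dpw and 1132 CPM in unwounded cells (-5.52). The receptor phosphatase Ptprz1 was higher, at 115 CPM at 5 dpw and 13.1 CPM in unwounded cells (3.13; 4.46 without the deep cells).

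Secreted and matrix factors of the bulge showed larger losses than its transcription factors by the list medians. Of 20 measured out of 23, 17 were at least 2-fold lower and 1 at least 2-fold higher, with a median of -4.08. Myoc, a secreted glycoprotein, had the lowest fold of all named genes, with 68 UMIs (1.06 CPM) at 5 dpw and 370 UMIs (174 CPM) in unwounded cells, a log2 fold of -7.35 (-7.75 to -6.98). Ltbp2, a matrix protein, stood at 1.31 CPM at 5 dpw and 123 CPM in unwounded cells (-6.55) and Ccn2, a matricellular protein, at 14.6 CPM at 5 dpw and 979.6 CPM in unwounded cells (-6.07). The alarmin Il33 alone was higher past 2-fold, at 106 CPM at 5 dpw and 10.8 CPM in unwounded cells (3.30, 2.71 to 3.96).

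Bulge cells also carry genes best known from neurons. Of 14 measured out of 20, 11 were at least 2-fold lower and 1 at least 2-fold higher (median -4.85). The higher member was Robo1, a guidance receptor (87.2 CPM at 5 dpw, 31.4 CPM unwounded, log2 fold 1.47; 2.93 without the deep cells and 0.36 at 90% hashtag purity). Chat, the enzyme that makes acetylcholine, stood at 2.41 CPM at 5 dpw and 205 CPM in unwounded cells (-6.42), and Grik1, a glutamate receptor subunit, at 7.09 CPM at 5 dpw and 523 CPM in unwounded cells (-6.20). The other lowest genes by fold were St6galnac5, a sialyltransferase (1.38 CPM at 5 dpw, 183 CPM unwounded, log2 fold -7.06), Pdzrn4 (6.33 CPM at 5 dpw, 684 CPM unwounded, log2 fold -6.76), Sorcs3 (1.16 CPM at 5 dpw, 99.5 CPM unwounded, log2 fold -6.43), the mitochondrial malic enzyme Me3 (1.69 CPM at 5 dpw, 126 CPM unwounded, log2 fold -6.22), the kinase Camk4 (3.83 CPM at 5 dpw, 286 CPM unwounded, log2 fold -6.22) and the adenylate cyclase Adcy1 (1.84 CPM at 5 dpw, 131 CPM unwounded, log2 fold -6.15).

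Cell by cell, the 2 pools overlapped little in bulge content. The bulge factors and secreted genes together made up a median of 0.191% of a cell's UMIs at 5 dpw and 1.47% in unwounded cells. The 5th percentile of unwounded cells was 0.870%, and 133 of 1558 cells at 5 dpw (8.54%, Clopper-Pearson 7.20 to 10.0%) were at or above it. With every cell thinned to 3000 UMIs, the median count of Krt15 was 0 at 5 dpw and 44 in unwounded cells, and that of Krt14 was 68 at 5 dpw and 9 in unwounded cells. With equal weight per cell, in place of the sum over all UMIs, the median log2 fold was -2.08 for the bulge transcription factors and -2.78 for the secreted genes, with Krt15 at -3.34 and Lgr5 at -3.77. The thinning left out 37 shallower cells at 5 dpw and 4 unwounded cells.

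**Figure D2:**
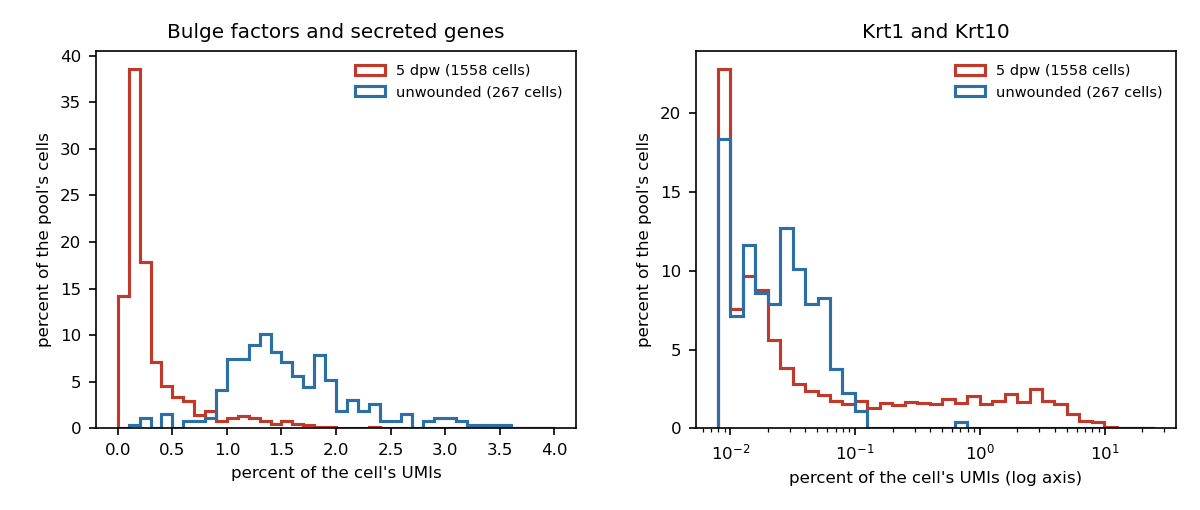
Distribution over cells of the percent of each cell's UMIs from the bulge factors and secreted genes (left) and from Krt1 and Krt10 (right, log axis; the leftmost bin also holds all cells below it, zeros included); the y axis is the percent of the pool's cells, red for 5 dpw and blue for unwounded. Most 5 dpw cells lie below the unwounded cells in bulge genes (medians 0.191% and 1.47%), and 14.6% of 5 dpw cells but no unwounded cell reach 1% in Krt1 and Krt10.

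Keratins differed in both directions. Krt15, the bulge keratin, stood at 569 CPM at 5 dpw and 12866 CPM in unwounded cells (log2 fold -4.50, -4.52 to -4.48), and Krt24 at 14.2 CPM at 5 dpw and 585 CPM in unwounded cells (-5.36). Krt14, the basal type I keratin, stood at 25991 CPM at 5 dpw and 5073 CPM in unwounded cells (2.36, 2.33 to 2.38), while its partner Krt5 was nearly level, at 5314 CPM at 5 dpw and 4414 CPM in unwounded cells (0.27). All 4 keratins of activated keratinocytes were at least 2-fold higher, with a median of 3.08 (3.74 without the deep cells), and made up 2.33% of UMIs at 5 dpw and 0.285% in unwounded cells. Krt6b stood at 3599 CPM at 5 dpw and 248 CPM in unwounded cells (3.86), Krt16 at 10717 CPM at 5 dpw and 984 CPM in unwounded cells (3.45; 4.05 without the deep cells), Krt6a at 6700.2 CPM at 5 dpw and 1017 CPM in unwounded cells (2.72; 3.43 without them) and Krt17 at 2268 CPM at 5 dpw and 601 CPM in unwounded cells (1.92). Krt6a and Krt6b are close copies, between which the counting could split reads. Over the 5 measured keratins of basal, bulge and outer root sheath cells, out of 9, 2 were at least 2-fold higher and 2 lower (median 0.27, and -0.74 with no minimum CPM). Free RNA at its share of the unwounded pool would carry 299.5 CPM of Krt16 and 216 CPM of Krt6a there.

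Genes of anchorage to the basement membrane were level or lower. Of 28 measured genes of integrins, hemidesmosomes and basement membrane, out of 33, 13 were at least 2-fold lower and 0 at least 2-fold higher (median -0.85, and -0.19 with TMM factors). The collagen IV chain genes were the lowest, with Col4a2 at 2.66 CPM at 5 dpw and 39.4 CPM in unwounded cells (-3.89) and Col4a6 at 7.31 CPM at 5 dpw and 101 CPM in unwounded cells (-3.79). Itgb1, the shared integrin subunit, was nearly level, at 245 CPM at 5 dpw and 223 CPM in unwounded cells (0.14). Genes of actin and contractility were more often higher, with 8 of 35 at least 2-fold higher and 1 lower (median 0.66). Tpm2, a tropomyosin, stood at 452 CPM at 5 dpw and 124 CPM in unwounded cells (1.86), and Rhov, a small GTPase, at 39.1 CPM at 5 dpw and 3.28 CPM in unwounded cells (3.57; 4.64 without the deep cells). Of 29 junction genes 7 were at least 2-fold higher and 0 lower (median 0.41). They included the gap junction genes Gjb2 (494 CPM at 5 dpw, 73.7 CPM unwounded, log2 fold 2.74; 3.46 without the deep cells) and Gja1 (281 CPM at 5 dpw, 58.2 CPM unwounded, log2 fold 2.27).

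Differentiation genes were higher. Of 21 measured suprabasal genes out of 30, 16 were at least 2-fold higher and 1 lower (median 2.74; 3.51 without the deep unwounded cells and 2.08 in male cells alone). Krt1 stood at 2771 CPM at 5 dpw and 160.0 CPM in unwounded cells (4.11, 3.96 to 4.27) and Krt10 at 2691 CPM at 5 dpw and 280.1 CPM in unwounded cells (3.26; 4.38 without the deep cells). Without the 5 dpw cells of at least 1% Krt1 and Krt10, a range set on these genes, Krt1 came to 1.66 and Krt10 to 1.05. The median of the suprabasal genes then came to 1.66. Free RNA would carry 73.9 CPM of Krt1 and 58.4 CPM of Krt10 in the unwounded pool. Calm4, a calcium-binding protein of the differentiating epidermis, stood at 1073 CPM at 5 dpw and 55.4 CPM in unwounded cells (4.28). The 1 lower member was Krt77 (5.84 CPM at 5 dpw, 142 CPM unwounded, log2 fold -4.60), of whose unwounded UMIs 95% came from 1 cell; without the deep cells its log2 fold was -0.42. Flg, the filaggrin gene of the granular layer, stood at 45.8 CPM at 5 dpw and 1.88 CPM in unwounded cells (4.61, 3.25 to 6.48), and 1 cell held 64.8% of its 2929 UMIs at 5 dpw.

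Envelope genes were higher together, with 16 of 17 measured out of 29 at least 2-fold higher and 0 lower (median 2.72; 3.80 without the deep cells). Sprr2a3 had the highest fold among the named genes of at least 50 CPM, at 161 CPM at 5 dpw and 7.51 CPM in unwounded cells (4.43, 3.73 to 5.23). Sprr1a stood at 376 CPM at 5 dpw and 34.2 CPM in unwounded cells (3.45). The Sprr2 genes are near-identical copies, among which the counting could split reads. Other genes of the highest folds were Mt4, the metallothionein of stratified epithelia (149 CPM at 5 dpw, 7.04 CPM unwounded, log2 fold 4.40), Endou (158 CPM at 5 dpw, 10.8 CPM unwounded, log2 fold 3.87) and Rbp2, a retinol-binding protein (226 CPM at 5 dpw, 15.5 CPM unwounded, log2 fold 3.86).

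Transcription factors of epidermal differentiation were higher in 15 of 29 cases and lower in 5 past 2-fold (median 1.03). Ehf, an ETS factor of epithelia, stood at 84.8 CPM at 5 dpw and 11.3 CPM in unwounded cells (2.91, 2.34 to 3.56). Zfp750, which drives keratinocyte differentiation, stood at 135 CPM at 5 dpw and 21.1 CPM in unwounded cells (2.67; 3.62 without the deep cells). Trp63, the master factor of stratified epithelia, was lower, at 259 CPM at 5 dpw and 821 CPM in unwounded cells (-1.67, -1.74 to -1.59). Notch pathway genes split, with 3 of 11 at least 2-fold higher and 5 lower, and their median of -0.28 turned to 0.37 with TMM factors and to 0.01 with folds centred on the median of all genes. The Notch targets Nrarp (73.2 CPM at 5 dpw, 13.6 CPM unwounded, log2 fold 2.43) and Hes1 (78.8 CPM at 5 dpw, 26.3 CPM unwounded, log2 fold 1.58) were higher. The ligand gene Jag2 (20.2 CPM at 5 dpw, 69 CPM unwounded, log2 fold -1.77) and Rbpj, the gene of the pathway's DNA-binding factor (28.5 CPM at 5 dpw, 129 CPM unwounded, log2 fold -2.18), were lower.

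Genes of dividing cells were higher. All 32 measured mitosis genes, out of 34, were at least 2-fold higher (median 2.65; 3.39 without the deep cells). Top2a stood at 196 CPM at 5 dpw and 15.5 CPM in unwounded cells (3.66, 3.17 to 4.20), Mki67 at 133 CPM at 5 dpw and 19.7 CPM in unwounded cells (2.75; 5.62 at 90% hashtag purity and 5.18 without its 5 highest cells) and Ube2c at 175 CPM at 5 dpw and 16.4 CPM in unwounded cells (3.42). In unwounded cells the level of Top2a rests on 33 UMIs and that of Mki67 on 42 UMIs, of which 1 cell held 39.4% for Top2a and 38.1% for Mki67. All 9 measured clustered histone genes were at least 2-fold higher (median 2.23), with Hist1h1b at 217 CPM at 5 dpw and 11.3 CPM in unwounded cells (4.27). Histone copies share sequence, and most of their transcripts lack the poly(A) tail that 3′ capture uses. DNA replication genes were at least 2-fold higher in 16 of 26 cases and lower in 0 (median 1.29), with Mcm5 at 38.5 CPM at 5 dpw and 6.10 CPM in unwounded cells (2.66).

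Cells with mitosis transcripts were counted at equal depth. Among cells thinned to 3000 UMIs, 557 of 1521 at 5 dpw (36.6%, Clopper-Pearson 34.2 to 39.1%) and 6 of 263 unwounded (2.28%, 0.842 to 4.90%) had at least 3 UMIs of the mitosis genes. Near the limit, at 2 or 3 UMIs, lay 11% of cells at 5 dpw and 4.94% of unwounded cells. Regulators of cycle entry were less uniform, with 4 of 17 at least 2-fold higher and 3 lower, and the sign of their median (0.29) turned in male cells alone, with equal weight per cell, with thinned cells and at 50 CPM. The cell cycle inhibitor Cdkn1b was lower (27.2 CPM at 5 dpw, 97.6 CPM unwounded, log2 fold -1.84) and Cdkn1a, a target of p53, was higher (236 CPM at 5 dpw, 74.1 CPM unwounded, log2 fold 1.67).

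Developmental signalling genes differed in both directions, more often downward. BMP and quiescence genes were at least 2-fold lower in 12 of 22 cases and higher in 3 (median -1.60). Id2, a BMP target, stood at 12 CPM at 5 dpw and 289 CPM in unwounded cells (-4.59), the BMP antagonist gene Grem1 at 5.86 CPM at 5 dpw and 417 CPM in unwounded cells (-6.15), and the receptor gene Bmpr1b was higher, at 43.4 CPM at 5 dpw and 3.75 CPM in unwounded cells (3.53, 2.55 to 4.74). WNT and hedgehog genes were lower in 10 of 15 and higher in 2 past 2-fold (median -2.21). The WNT receptor gene Fzd2 stood at 13.6 CPM at 5 dpw and 318 CPM in unwounded cells (-4.54), and the ligand gene Wnt4 was higher, at 223 CPM at 5 dpw and 104 CPM in unwounded cells (1.10).

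In the EGF family several ligand genes were higher and Egfr was lower. Of 12 measured genes 5 were at least 2-fold higher and 1 lower (median 0.95; 1.74 without the deep cells and 0.47 in male cells alone). Nrg1, a ligand of ERBB3 and ERBB4, stood at 398.98 CPM at 5 dpw and 62.4 CPM in unwounded cells (2.68, 2.43 to 2.93). In the unwounded pool 1 cell held 45.9% of its 133 UMIs, and without the deep cells the log2 fold was 4.77. The EGFR ligand genes Hbegf (232 CPM at 5 dpw, 48.3 CPM unwounded, log2 fold 2.26; 3.12 without the deep cells), Epgn (152 CPM at 5 dpw, 42.2 CPM unwounded, log2 fold 1.85; 4.49 without them) and Areg (343 CPM at 5 dpw, 116 CPM unwounded, log2 fold 1.56; 5.04 without them) were also higher. Egfr, their receptor, stood at 167 CPM at 5 dpw and 657 CPM in unwounded cells (-1.97, -2.06 to -1.89).

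Keratinocyte cytokine genes were at least 2-fold higher in 11 of 15 measured cases, out of 34 listed, and lower in 2 (median 2.19). The summed RNA of the list was nonetheless lower, at 1670 CPM at 5 dpw and 2658 CPM in unwounded cells. Its median share of a cell's UMIs was 0.148% at 5 dpw and 0.247% in unwounded cells. Socs3 (178 CPM at 5 dpw, 38.9 CPM unwounded, log2 fold 2.19) and Tnfaip3 (54.5 CPM at 5 dpw, 11.7 CPM unwounded, log2 fold 2.22), both feedback inhibitors of cytokine signalling, were higher. The lower members were the chemokines of resting skin Cxcl14 (143 CPM at 5 dpw, 1522 CPM unwounded, log2 fold -3.41) and Ccl27a (70.03 CPM at 5 dpw, 518 CPM unwounded, log2 fold -2.89; -4.16 in male cells alone). Of 8 antimicrobial genes 5 were at least 2-fold higher and 2 lower (median 3.23). The beta-defensin gene Defb1 stood at 123 CPM at 5 dpw and 7.51 CPM in unwounded cells (4.04), the protease inhibitor gene Slpi at 119 CPM at 5 dpw and 7.98 CPM in unwounded cells (3.90), and S100a8 and S100a9, whose proteins pair, at 117 and 193 CPM at 5 dpw and at 8.91 and 18.3 CPM in unwounded cells. Over the S100 genes as a family 4 of 10 were at least 2-fold higher and 2 lower (median 0.64, and -0.39 with no minimum CPM). Interferon and antigen presentation genes split, with 3 of 15 at least 2-fold higher and 3 lower, and their median of -0.65 came to 0.01 with TMM factors. Irf1 was higher (73.2 CPM at 5 dpw, 8.91 CPM unwounded, log2 fold 3.04) and the class I gene H2-T23 lower (36.4 CPM at 5 dpw, 123 CPM unwounded, log2 fold -1.76).

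Matrix proteolysis genes were at least 2-fold higher in 9 of 20 and lower in 3 (median 0.79; 1.90 without the deep cells). Plaur, the urokinase receptor gene, stood at 42.8 CPM at 5 dpw and 6.10 CPM in unwounded cells (2.81, 2.04 to 3.72). Timp2, a metalloproteinase inhibitor, was lower, at 9.92 CPM at 5 dpw and 259.9 CPM in unwounded cells (-4.71). The direction for the collagenase gene Mmp13 rested on a single cell. It stood at 26.4 CPM at 5 dpw and 54 CPM in unwounded cells (-1.03), 1 unwounded cell held 99.1% of the 115 unwounded UMIs, and without the deep cells the log2 fold was 5.66.

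The 3 genes of serine synthesis were each at least 2-fold higher at 5 dpw. Phgdh, the first enzyme, stood at 136 CPM at 5 dpw and 59.6 CPM in unwounded cells (log2 fold 1.19, 0.94 to 1.46). Psat1, the second, stood at 81.2 CPM at 5 dpw and 12.2 CPM in unwounded cells (2.73, 2.18 to 3.35; 3.58 without the deep cells), and Psph, the third, at 129 CPM at 5 dpw and 39.4 CPM in unwounded cells (1.71, 1.40 to 2.04). The Psat1 level in unwounded cells rests on 26 UMIs. Over the whole list of serine and folate one-carbon enzymes 7 of 18 were at least 2-fold higher and 3 lower (median 0.55). Shmt2, which moves a carbon of serine to folate in mitochondria, stood at 50.9 CPM at 5 dpw and 21.6 CPM in unwounded cells (1.24). The cytosolic folate enzyme gene Mthfd1 (18.3 CPM at 5 dpw, 46.9 CPM unwounded, log2 fold -1.36) and the purine enzyme gene Atic (28.4 CPM at 5 dpw, 62.4 CPM unwounded, log2 fold -1.14) were lower.

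ATF4 and targets of the integrated stress response were at least 2-fold higher in 16 of 24 measured cases, out of 33 listed, and lower in 3 (median 1.25 against -0.30 over all genes). The list holds Phgdh, Psat1, Psph and Shmt2 as well. Atf4 itself stood at 123 CPM at 5 dpw and 71.8 CPM in unwounded cells (0.77, 0.54 to 1.01), and its activity is set in large part by translation, which RNA counts do not read. Nupr1, a stress-induced chromatin protein, stood at 177 CPM at 5 dpw and 23.9 CPM in unwounded cells (2.89, 2.49 to 3.32), Asns, asparagine synthetase, at 68.2 CPM at 5 dpw and 19.2 CPM in unwounded cells (1.83, 1.38 to 2.31), and the arginine transporter gene Slc7a1 at 47.3 CPM at 5 dpw and 11.7 CPM in unwounded cells (2.01). The glutamine transporter gene Slc38a2 was lower, at 274 CPM at 5 dpw and 672 CPM in unwounded cells (-1.30), as was Slc3a2, a subunit of amino acid exchangers (63.6 CPM at 5 dpw, 131 CPM unwounded, log2 fold -1.04). Aminoacyl-tRNA synthetase genes were at least 2-fold higher in 8 of 20 and lower in 0 (median 0.80), led by Gars (95.8 CPM at 5 dpw, 31 CPM unwounded, log2 fold 1.63) and Rars (96.5 CPM at 5 dpw, 40.3 CPM unwounded, log2 fold 1.26).

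The composite element that ATF4 binds with a C/EBP partner was searched as TGATGNAA, or TTNCATCA on the other strand, in the 250 bases before each start site in RefSeq (GRCm38.p6). It was found in 3.45% of 32851 promoter windows. By gene, it was found in 164 of 6904 genes of at least 10 CPM with a window (2.38%). Among the stress response members with a window it was found in 4 of 22 (18.2%). The list was made of ATF4 and targets of this response, so its share is not independent support for the element. These 4 windows are shown because they pair the element with both directions of difference, with its letters in capitals.
Nupr1 (chr7:126625533-126625620, minus strand, 110 bases before the start): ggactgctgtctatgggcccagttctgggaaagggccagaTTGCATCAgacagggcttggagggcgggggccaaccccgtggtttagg
Asns (chr6:7693210-7693272, minus strand, 23 bases before the start): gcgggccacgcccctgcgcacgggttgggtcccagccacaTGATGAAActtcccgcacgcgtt
Atf3 (chr1:191183396-191183483, minus strand, 110 bases before the start): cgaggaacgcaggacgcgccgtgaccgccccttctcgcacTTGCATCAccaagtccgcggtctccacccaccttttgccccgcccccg
Vldlr (chr19:27216780-27216867, plus strand, 200 bases before the start): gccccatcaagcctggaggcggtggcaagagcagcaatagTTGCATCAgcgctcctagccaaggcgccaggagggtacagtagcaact
Nupr1 (2.89) and Asns (1.83) were at least 2-fold higher at 5 dpw. Vldlr, a lipoprotein receptor, was lower (4.78 CPM at 5 dpw, 16 CPM unwounded, log2 fold -1.74), and Atf3, also an immediate early gene, stood at 521 CPM at 5 dpw and 725 CPM in unwounded cells (-0.48, and 0.18 with TMM factors). A match is a description of the letters and not a bound site.

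Metabolic genes were higher more often than lower. Of 27 glycolysis and hypoxia genes 18 were at least 2-fold higher and 0 lower (median 1.51), with the glycolytic enzyme gene Eno1 at 372 CPM at 5 dpw and 66.1 CPM in unwounded cells (2.49; 3.14 without the deep cells), the lactate transporter gene Slc16a1 at 35.6 CPM at 5 dpw and 5.16 CPM in unwounded cells (2.79; 3.77) and Vegfa, a growth factor for vessels, at 47.1 CPM at 5 dpw and 9.85 CPM in unwounded cells (2.26; 3.33). Of 30 cholesterol and fatty acid genes 17 were at least 2-fold higher and 0 lower (median 1.20). Ribosome biogenesis genes were at least 2-fold higher in 16 of 30 and lower in 0 (median 1.08), with Nhp2 at 307 CPM at 5 dpw and 88.2 CPM in unwounded cells (1.80). Smaller medians were seen for 50 respiratory chain subunits (0.60, 7 past 2-fold, all higher), 32 proteasome subunits (0.74, 4 past 2-fold, all higher), 25 chaperone genes (0.75, 5 higher and 0 lower) and 26 redox genes (0.86, 11 higher and 4 lower). The share at least 2-fold higher was 14% for the respiratory chain and 12.5% for the proteasome, near the 10.9% of all measured genes. For chaperone genes it was 20% and for redox genes 42.3%. Gsta4, a glutathione transferase for lipid aldehydes, had 25535 UMIs at 5 dpw and 89 UMIs in the smaller unwounded pool, where its level was 41.8 CPM (log2 fold 3.26; 3.85 without the deep cells), while Sod1 (22.6 CPM at 5 dpw, 99.9 CPM unwounded, log2 fold -2.14) and Cat (23.8 CPM at 5 dpw, 78.3 CPM unwounded, log2 fold -1.72), which remove superoxide and peroxide, were lower. Of 80 measured ribosomal protein genes 3 were at least 2-fold higher, a smaller share than over all measured genes, and 0 lower (median 0.41). Ribosomal protein genes made up 22.7% of UMIs at 5 dpw and 16.9% in unwounded cells. The 13 mitochondrially encoded genes had a median of -0.37, which turned positive with TMM factors.

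Clock genes were at least 2-fold lower in 9 of 12 measured cases and higher in 1 (median -1.89). Npas2, a positive factor of the clock, stood at 2.27 CPM at 5 dpw and 87.7 CPM in unwounded cells (-5.28, -5.60 to -4.95), and the output factor genes Tef (6.69 CPM at 5 dpw, 119 CPM unwounded, log2 fold -4.15) and Dbp (5.42 CPM at 5 dpw, 71.8 CPM unwounded, log2 fold -3.73) were also lower. Bhlhe40, a repressor of the clock that other stimuli also induce, was higher (167 CPM at 5 dpw, 26.3 CPM unwounded, log2 fold 2.67; 3.24 without the deep cells). The time of day of sampling is not given in the sources used here. Immediate early genes, which the dissociation of tissue also induces, had a median of -0.01, which turned to 0.64 with TMM factors and turned positive under 6 other settings; 6 of 26 were at least 2-fold higher and 3 lower.

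**Figure D3:**
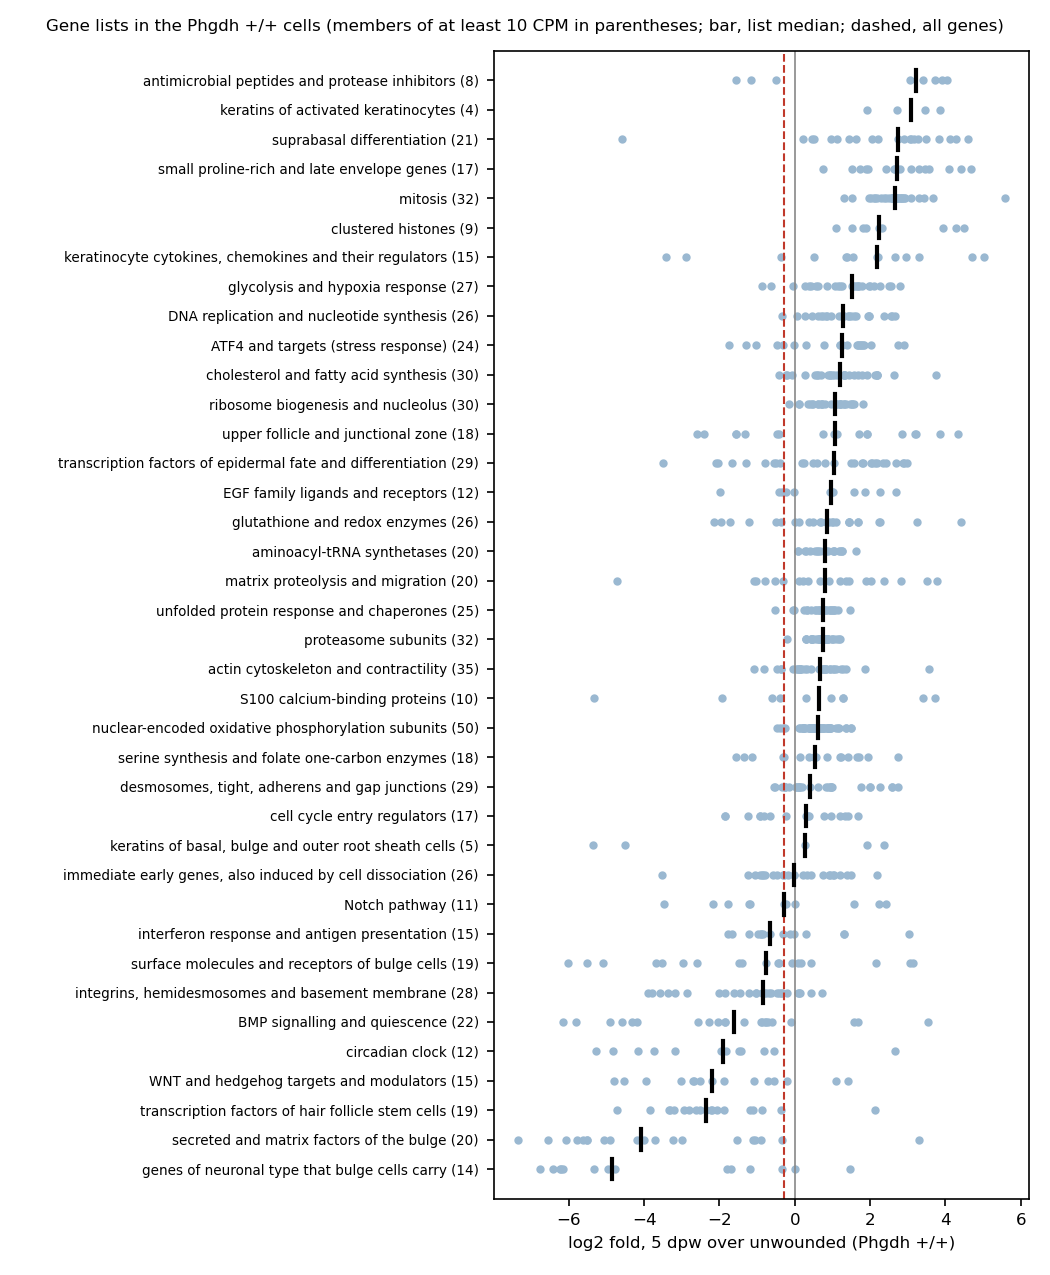
Log2 folds of 5 dpw over unwounded for the members of 38 gene lists of at least 10 CPM, each point a gene, with the list median as a black bar and the median of all 8632 genes as a dashed line. The lists run from genes of neuronal type at -4.85 to antimicrobial genes at 3.23, and with TMM factors all points lie 0.655 further right.

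The 5 dpw pool was itself mixed. For 227 of 1558 cells (14.6%, 12.9 to 16.4%) at least 1% of UMIs came from Krt1 and Krt10, while 0 of 267 unwounded cells were there (exact upper limit 1.37%; a count of 3 would be 1.12%). This is a range and not a cell type, and 11% of the 5 dpw cells lay between 0.5% and 2%. Among the 1521 cells thinned to 3000 UMIs, 29 of 216 cells in the high range (13.4%, 9.18 to 18.7%) and 528 of 1305 below it (40.5%, 37.8 to 43.2%) had at least 3 mitosis UMIs. The cells thus fell into 216 high in Krt1 and Krt10, 528 others with mitosis UMIs, and 777 with neither. Median depth was 41727.5 UMIs in the Krt1 and Krt10 range, 49479 in the mitosis range and 25585 in cells with neither.

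The ranges differed in more than the genes that set them. Itgb4, the hemidesmosome integrin, stood at 9.10 CPM in the Krt1 and Krt10 range, 113 CPM in the mitosis range and 101 CPM in the rest, against 216 CPM in unwounded cells. Nrg1 stood at 46.3 CPM in the Krt1 and Krt10 range, 499 CPM in the mitosis range and 418 CPM in the rest, and at 62.4 CPM in unwounded cells. That unwounded level rests in part on the deep cells, without which the log2 fold of Nrg1 between the pools was 4.77 in place of 2.68. Whether the Krt1 and Krt10 range lay below unwounded cells in Nrg1 is thus uncertain. Krt15 was highest in the cells with neither, at 1119 CPM, against 123 CPM in the Krt1 and Krt10 range and 214 CPM in the mitosis range. Phgdh stood at 102 CPM in the Krt1 and Krt10 range, 174 CPM in the mitosis range and 108 CPM in the rest. Psph stood at 193 CPM in the Krt1 and Krt10 range, 128 CPM in the mitosis range and 107 CPM in the rest. Each of these levels of Phgdh and Psph was above that of the unwounded pool (59.6 CPM for Phgdh and 39.4 CPM for Psph), and Phgdh was highest in the mitosis range while Psph was highest in the Krt1 and Krt10 range.

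**Figure D4:**
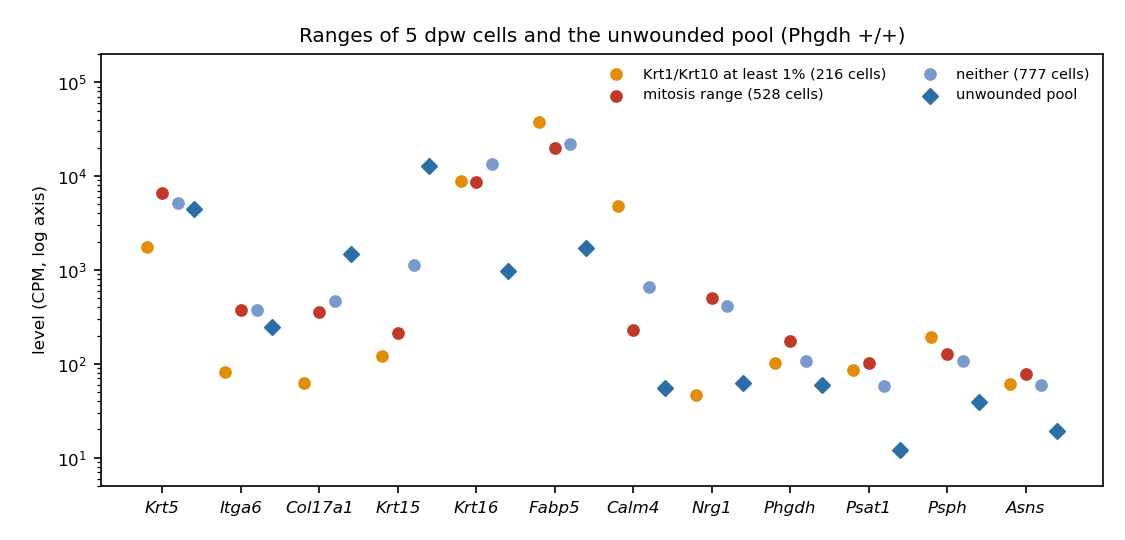
Levels of 12 genes (CPM, log axis) in 3 ranges of 5 dpw cells (orange, Krt1 and Krt10 at least 1% of UMIs; red, at least 3 mitosis UMIs of 3000; light blue, neither) and in the unwounded pool (dark blue diamonds); each point is a sum over cells with no replicate. Col17a1, the anchoring collagen, stood at 62.2 CPM in orange, 358 CPM in red and 472 CPM in light blue, against 1465 CPM in unwounded cells.

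Cells called female and male differed within the 5 dpw pool. Apoe stood at 5793 CPM in female and 1909.7 CPM in male cells, Krt15 at 1349 CPM in female and 358 CPM in male cells, and Nrg1 at 169 CPM in female and 453 CPM in male cells, with median depths of 23317 UMIs in female and 44297 UMIs in male cells. Sex and animal cannot be told apart here. With male cells alone in both pools 891 genes were at least 2-fold higher and 2523 at least 2-fold lower, and the median of the 18 measured upper follicle genes, of which 10 were at least 2-fold higher and 5 lower, was 0.22 in place of 1.07; without the deep unwounded cells it was 2.07.

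The same comparison in the pools with floxed Phgdh (fl/fl), which share no cells with the +/+ pools, is set beside it. In fl/fl 0 of 1519 cells at 5 dpw and 0 of 602 unwounded cells were called female, against 343 of 1558 in +/+ at 5 dpw. Sex could not be called for 138 fl/fl cells at 5 dpw and 340 unwounded fl/fl cells. Genotype, sex and animal thus cannot be told apart. Of 8510 genes there, 1041 (12.2%) were at least 2-fold higher at 5 dpw and 2095 (24.6%) at least 2-fold lower. Across 8364 genes measured in both, the log2 folds correlated at Pearson r = 0.96 and Spearman rho = 0.96, a description over genes of 1 capture. Of the genes at least 2-fold higher, 808 were shared, 87.4% of those in +/+ and 79.6% of those in fl/fl. Of those at least 2-fold lower, 1846 were shared, 84.6% of those in +/+ and 90.4% of those in fl/fl. Phgdh itself had a log2 fold of 1.19 in +/+ and 0.17 in fl/fl, at 21.4 CPM at 5 dpw and 19 CPM in unwounded fl/fl cells. Psat1 had a log2 fold of 2.73 in +/+ and 2.62 in fl/fl, and Asns 1.83 in +/+ and 2.08 in fl/fl. The list medians were furthest apart for the antimicrobial genes (3.23 in +/+ and 0.02 in fl/fl), followed by the suprabasal genes (2.74 in +/+ and 1.23 in fl/fl). For S100a8 the unwounded level was 8.91 CPM in +/+ and 102 CPM in fl/fl. Differences between genotypes were not tested.

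**Figure D5:**
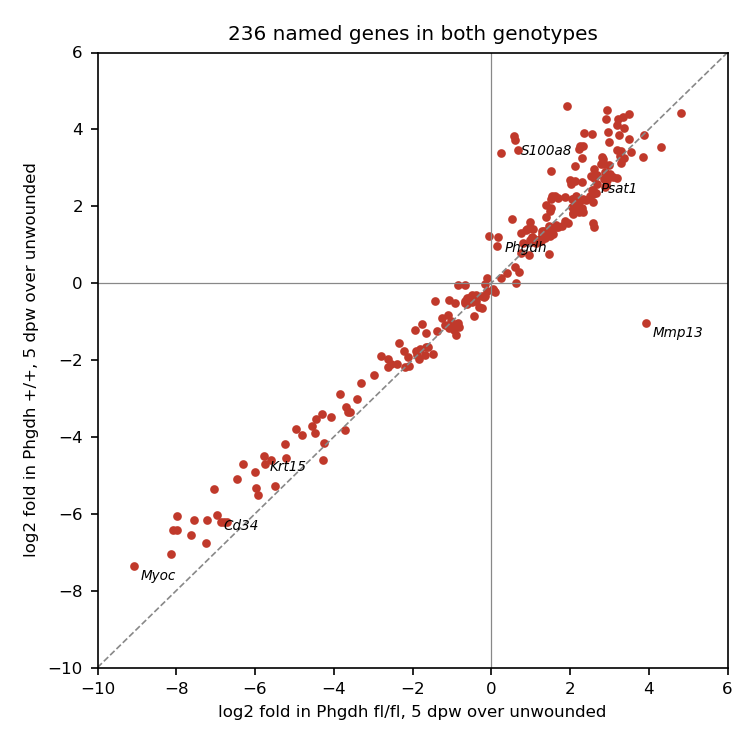
Log2 folds of 5 dpw over unwounded for 236 named genes, in Phgdh +/+ (y axis) and Phgdh fl/fl (x axis), each point a gene; the dashed line marks equal folds. Most genes lie near the line, Mmp13 lies apart at -1.03 in +/+ and 3.94 in fl/fl, and S100a8 at 3.72 in +/+ and 0.60 in fl/fl.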

How the data were processed

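Single cells of mouse skin were profiled by 10x 3′ RNA sequencing with antibody hashtags. Per the labels' protocols the hashtags were TotalSeq-B antibodies; the deposited feature table gives their oligos. Per the submitters' processing notes, Cell Ranger 7.1.0 with the mm10 build and Seurat 4.3.0 were used, and their roles are not stated. The deposited matrix holds raw UMI counts of all 2997303 barcodes and 32285 genes, with no normalization by the authors. Whether intronic reads were counted is not given in the sources used here. No value column was left unmapped.

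Of 9880 barcodes with at least 1000 UMIs, 6900 passed the filters for cells (2929 failed the mitochondrial limit), 5887 had 1 hashtag, 762 mixed hashtags (11.5%) and 251 too few hashtag UMIs. Barcodes of mixed hashtags were dropped as candidate doublets; doublets within a hashtag stay, about 68.0 at 5 dpw and 2.0 in unwounded cells if mixed barcodes are doublets. UMIs were summed over the cells of a pool and scaled to CPM. The log2 fold of a gene compares its CPM in the 2 pools, with an exact binomial interval conditional on its total; shares have Clopper-Pearson intervals. No test was possible between single pools. Thinned cells had 3000 UMIs drawn. A cell was called female when Xist had 2 or more UMIs and Y-linked genes no more than 1, and male in the opposite case. Python 3.11.15, numpy 2.4.6, scipy 1.17.1 and pandas 2.3.3 were used, and edgeR 4.0.16 in R 4.3.3 for TMM factors alone. On simulated Poisson counts for this comparison (8632 genes) all 50 genes set to each of 1.5-, 2-, 4- and 0.25-fold had the right sign. Intervals held the truth for 100%, 96%, 98% and 98% of them. Poisson error is what the interval is built for, so the simulation cannot show how the intervals do with spread between cells or animals. Without the 5 highest cells of each gene, 116 of 236 named genes had a fold within the main interval.

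The cells, the 38 gene lists and the 14 marker lists were chosen with earlier results of these data known. The text names the 10 genes of highest and the 10 of lowest fold and the 12 largest gains and losses, taken from genes that average 50 CPM and have an interval without 0 (mitochondrial, ribosomal, predicted, Xist and Y-linked genes left out), up to 4 highest and 3 lowest members of at least 20 CPM from each list, and 17 genes always given. Cd200, Itgb4, Col17a1, Vldlr, Lsmem1, Slc15a2, Stxbp5l, Lce3c and Crct1 were chosen after their values were seen. Alternatives were TMM factors, centring on the median, other CPM minimums, hashtag purity, equal weight per cell, thinned cells, male cells alone, removal of free RNA and removal of deep or high cells. Il31ra was moved from the secreted to the surface list after its values were seen.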

Additional observations from a re-analysis of the deposited data

Results flagged for a closer look

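Of the 8364 genes measured in both genotypes, 6 were at least 2-fold apart from unwounded cells in opposite directions in +/+ and fl/fl. With 1 pool per condition these differences between genotypes were not tested. Mmp13, a collagenase gene, had a log2 fold of -1.03 in +/+ and 3.94 in fl/fl. In +/+ it stood at 26.4 CPM at 5 dpw and 54 CPM in unwounded cells, and 1 cell held 99.1% of the unwounded UMIs. Stxbp5l had log2 folds of 1.78 in +/+ and -5.26 in fl/fl, and 1 cell held 74.1% of its unwounded +/+ UMIs. At 5 dpw in +/+ it stood at 124 CPM in female and 28.4 CPM in male cells, and no fl/fl cell was called female. In fl/fl it stood at 0.970 CPM at 5 dpw and 37.2 CPM in unwounded cells. Lce3c and Crct1, late envelope genes, had log2 folds of 2.80 and 3.08 in +/+ and of -1.37 and -1.64 in fl/fl. Their unwounded +/+ levels rest on 7 and 6 UMIs, and at 5 dpw the 5 highest +/+ cells held 87.6% and 68.6% of theirs. Lsmem1 had log2 folds of 2.66 in +/+ and -1.09 in fl/fl, with 9 unwounded +/+ UMIs. Slc15a2, a peptide transporter gene, had log2 folds of 2.16 in +/+ and -1.84 in fl/fl, with 10 unwounded +/+ UMIs.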

How the results depend on the processing

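No paired analysis was possible because each condition has 1 pool and the labels give no replicate numbers, and leaving out a replicate was not possible for the same reason. The 942 genes at least 2-fold higher became 2288 with TMM factors, 1436 with folds centred on the median of all genes, 1680 with no minimum CPM and 395 at 50 CPM. The 2353 lower became 1196 with TMM factors, 12564 with no minimum CPM and 720 at 50 CPM; under the other settings run both counts were within 1.5 times. With no minimum 22174 genes were compared in place of 8632. Of the 236 named genes 198 were past 2-fold, and between 185 (TMM factors) and 198 of them were so under each alternative. Of the 38 named genes within 2-fold, 28 changed sign under at least 1 setting, 24 of them with TMM factors. Folds moved by over 1.5 times for 79 named genes without the 5 highest cells of each, 64 with thinned cells, 61 with equal weight per cell and 51 at 90% hashtag purity. Of the genes past 2-fold 5 changed sign. Mmp13 (-1.03) came to 4.15 at 90% hashtag purity, 1.16 with equal weight per cell, 1.91 with thinned cells, 3.24 without the 5 highest cells of each gene, 4.06 without the 5% deepest cells and 5.66 without the 4 unwounded cells of at least 20000 UMIs, an alternative added after the data were seen. Krt77 came to 1.84, Defb6 to 4.60 and Alox12e to 2.0 without the 5 highest cells, and Krt77 to 0.30 and Defb6 to 0.40 without the 5% deepest. Flg came to -1.12 without the 5 dpw cells of at least 1% Krt1 and Krt10. Depth limits the unwounded pool: genes under about 1.41 CPM there cannot be told from 0, and no interval covers animals.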
